A study of Arabidopsis thaliana with 11 samples.

Results

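The question addressed here was whether the transcript response to the peptide PSY1 depended on its receptor PSY1R, and it was tested as the interaction between genotype and treatment. The interaction is the response to PSY1 in the receptor mutant psy1r (psy1r + PSY1 minus psy1r) minus the response in wild type (WT + PSY1 minus WT). It drew on all 11 arrays of the series, chosen by the sample titles, with 2 arrays of psy1r + PSY1 (replicates 1 and 3) and 3 each of psy1r, WT + PSY1 and WT. The titles of the treated mutant read psy1+PSY1, which was taken here as psy1r + PSY1. Of 43603 probes on the array, 30177 were well above background on every array and 30176 of these could be tested, as 1 probe had no measured value left in psy1r + PSY1. A positive interaction means that the response in psy1r was higher than that in WT.

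Both lines are Arabidopsis thaliana in the Columbia-0 background, and psy1r is a knockout of the receptor whose allele is not given in the sources used here. Whole seedlings of both lines were grown hydroponically for one week under continuous light, and the treated groups received 10 nM PSY1 for 4 h. Labels for the untreated groups do not say whether a mock treatment was given. Each cyanine 3-labelled RNA sample was read on 1 Agilent array with a single colour. Levels are given as log2 of the processed spot intensity minus log2 of the 75th percentile of the array, so that a negative level lies below that percentile, and levels of different genes cannot be ranked on this scale. In whole seedlings, fewer cells of a type and less RNA per cell cannot be told apart.

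PSY1 is a secreted peptide that carries a sulfated tyrosine and promotes cell expansion. Its proposed receptor PSY1R is a leucine-rich repeat receptor kinase of the family that also holds the receptors of phytosulfokine, another sulfated peptide. Tyrosine sulfation of both peptides is carried out by the enzyme TPST, and the plasma membrane proton pumps are a known target of this kind of signalling.

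The probe for PSY1R (AT1G72300) followed the labels. Its level was -7.55 and -4.76 in psy1r + PSY1, -6.60, -6.54 and -8.58 in psy1r, -1.51, -1.72 and -1.48 in WT + PSY1, and -1.25, -1.22 and -1.89 in WT. The probe was well above background on 1 of 2 arrays of psy1r + PSY1 and 1 of 3 of psy1r, against all 6 arrays of WT, so it was not among the probes tested. Marker transcripts of leaf mesophyll, root hair and root endodermis were detected in each group, but root hair markers were not level across arrays. Summed over 5 root hair markers, the level was -1.97 and -2.18 in psy1r + PSY1 and -0.84, -0.73 and -2.92 in psy1r. It was -1.28, -1.23 and -1.03 in WT + PSY1 and -0.49, -0.40 and -2.06 in WT, so replicate 3 was the lowest array of WT and of psy1r. Summed over 8 seed markers, of which 1 was well above background on every array, the level was -1.76 and 4.25 in psy1r + PSY1 replicates 1 and 3, -0.86 to -0.59 in psy1r, -3.11 to -2.39 in WT + PSY1 and -3.10 to -2.72 in WT. Of 3 flower markers, SEP3 was at 1.48 and 2.03 in psy1r + PSY1, 1.54 to 2.22 in psy1r, 0.30 to 0.35 in WT + PSY1 and -0.01 to 0.51 in WT, PI was lower in psy1r than in WT, and AP1 was well above background on 7 arrays. Their part in the results was not tested.

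The arrays of a group were not equally far apart. Between replicates 1 and 3 of psy1r + PSY1 the median absolute difference of the tested probes was 0.32 on the log2 scale. In psy1r, replicates 1 and 2 differed by 0.08 and replicate 3 differed from them by 0.33 and 0.32. The 3 arrays of WT + PSY1 differed by 0.07 to 0.09, whereas in WT replicates 1 and 2 differed by 0.07 and replicate 3 stood 0.29 and 0.28 from them. Each slide carried 1 replicate number, and each group had the same position on every slide, so that position and group cannot be told apart.

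In limma, 22 probes were called for the interaction with a p adjusted by Benjamini-Hochberg below 0.05 and responses that differed more than 2-fold, which is 0.0729% of the probes tested. The response in psy1r was higher for 16 of them (0.053%) and lower for 6 (0.0199%). Without the adjustment, 818 probes (2.71%) passed at p below 0.05 and 2-fold, 445 higher (1.47%) and 373 lower (1.24%). The response within psy1r gave 1 call (0.00331%), which was down, and 146 probes (0.484%) passed without the adjustment, 58 up (0.192%) and 88 down (0.292%). The response within WT gave 167 calls (0.553%), 126 up (0.418%) and 41 down (0.136%), and 588 probes (1.95%) passed without it, 354 up (1.17%) and 234 down (0.775%). These counts do not compare the size of the response between lines, as psy1r + PSY1 had 2 arrays and WT + PSY1 had 3. The median SD over probes was 0.23 in psy1r + PSY1, 0.21 in psy1r, 0.07 in WT + PSY1 and 0.18 in WT. The single call in psy1r was a probe for SRO4 (AT3G47720), named here after its value was seen, which fell by 2.89 on the log2 scale in psy1r after PSY1 and was not called for the interaction (-2.10). The median interaction over all probes was 0.03, the quartiles were -0.24 and 0.29, and the median SE was 0.26.

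The number of interaction calls moved with the setting. With the replicate number (the slide) as a block, 5 of the 22 probes were called and no others. When replicates 1 and 2 of a group were averaged into 1 sample, none was called. With background correction by normexp and quantile normalization, 52 were called, 21 higher and 31 lower, and with the RMA steps 19, 11 higher and 8 lower. Without one array of psy1r + PSY1 the count was 904 (without replicate 1) or 20 (without replicate 3), without one of psy1r 6, 7 or 116 (without replicates 1, 2 and 3 in turn), without one of WT + PSY1 3, 5 or 4, and without one of WT 5, 4 or 55. AT4G20970 and MYB112 were called without any one of the 11 arrays, and PRX52 was called without 10 of them.

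All 22 called probes had responses of opposite sign in the 2 lines. So did 723 of the 818 that passed without the adjustment, and 14004 of the 30176 probes tested. A call requires a large difference between the responses, so the selection itself favours opposite signs, and their share is not a separate result. For 16 the level was higher after PSY1 in psy1r and lower after PSY1 in WT, and for 6 the reverse held. Of the 22, 14 had responses of at least 0.5 (log2) in both lines and opposite signs, and 1, 5PTASE11, had a response of at least 1 in WT and under 0.5 in psy1r. By the same limits, 342 of all tested probes (1.13%) were opposite, 402 (1.33%) ran in the same direction, 157 (0.52%) responded in psy1r alone and 582 (1.93%) in WT alone. The response within psy1r was called for none of the 22, with adjusted p of 0.0507 or more. The response within WT had an adjusted p below 0.05 in limma for 19 of them, and 9 also passed 2-fold and were called. Across all probes the 2 responses, which share no array, had a Pearson r of 0.07 and a Spearman rho of 0.08. These r values are across probes on the same arrays, which are not independent.

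**Figure D1:**
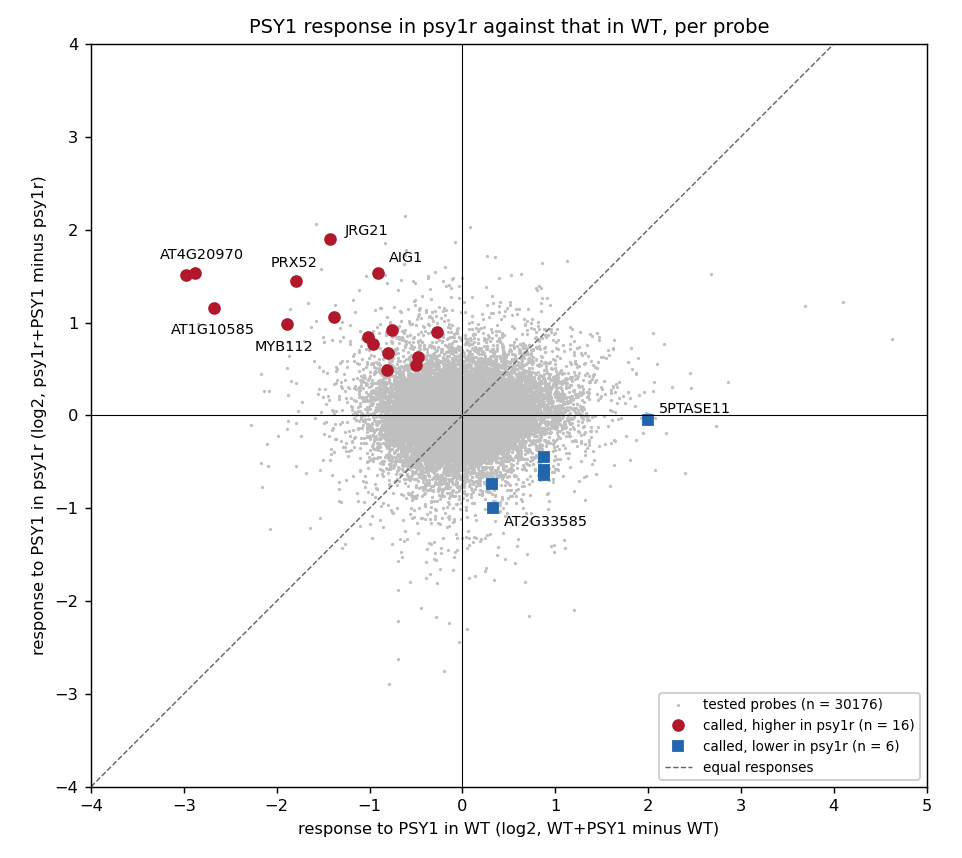
Response to PSY1 in psy1r (y axis) against that in WT (x axis), both as log2 of treated over untreated, for 30176 tested probes in grey. The 16 probes called with a higher response in psy1r (red circles) lie upper left of the dashed line of equal responses, and the 6 called with a lower one (blue squares) lie lower right of it.

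The 2 largest interactions belonged to AT4G20970 and AT1G10585, loci to which the reference gives no symbol and which the study lists among transcription factors. AT4G20970 had levels of -1.58 and -1.87 in psy1r + PSY1, -2.99, -3.0 and -3.72 in psy1r, -4.11, -4.18 and -4.12 in WT + PSY1, and -1.29, -1.45 and -0.72 in WT. Treated and untreated arrays did not overlap in either line, and WT + PSY1 was the lowest of the groups. The response was 1.51 ± 0.26 (SE) in psy1r and -2.98 ± 0.23 in WT, an interaction of 4.49 ± 0.35 (22.5-fold, adjusted p = 0.0041), and 0.0253 with the replicate block. A second probe of this locus gave 4.41 ± 0.39 (adjusted p = 0.00742). AT1G10585 had levels of -1.01 and -1.34 in psy1r + PSY1, -2.22, -2.22 and -2.55 in psy1r, -3.60, -3.80 and -3.66 in WT + PSY1, and -1.47, -1.51 and -0.06 in WT. The group means of AT1G10585 took the same order as those of AT4G20970, and WT replicate 3 stood above the rest. The interaction was 3.83 ± 0.50 (adjusted p = 0.0395, and 0.117 with the replicate block). A second probe of AT1G10585 gave 3.83 ± 0.63 and was not called (adjusted p = 0.0921).

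JRG21 (AT3G55970), jasmonate-regulated gene 21, encodes an oxygenase that inactivates jasmonate. It had levels of -0.62 and -0.52 in psy1r + PSY1, -2.33, -2.09 and -3.01 in psy1r, -1.79, -1.57 and -1.79 in WT + PSY1, and -0.56, -0.48 and 0.16 in WT. The treated psy1r arrays were thus near the untreated WT arrays, and the untreated psy1r arrays were the lowest. The interaction was 3.33 ± 0.37 (10.0-fold, adjusted p = 0.0204, and 0.108 with the block), from 1.90 ± 0.28 in psy1r and -1.42 ± 0.25 in WT.

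PRX52 (AT5G05340) is a cell wall peroxidase of class III, the enzymes that form and cross-link lignin. Levels were -4.58 and -3.75 in psy1r + PSY1, -5.52, -5.57 and -5.74 in psy1r, -4.76, -4.64 and -4.53 in WT + PSY1, and -2.99, -2.94 and -2.60 in WT. Untreated WT stood above every other array. The interaction was 3.24 ± 0.30 (adjusted p = 0.00946, and 0.0253 with the block). MYB112 (AT1G48000), a transcription factor of the MYB family, had levels of -3.58 and -3.27 in psy1r + PSY1, -4.29, -4.30 and -4.66 in psy1r, -5.14, -4.96 and -5.15 in WT + PSY1, and -3.27, -3.28 and -3.03 in WT. The 4 groups fell into a high pair (psy1r + PSY1 and WT) and a low pair (psy1r and WT + PSY1). Its interaction was 2.88 ± 0.21 (adjusted p = 0.0041, and 0.0253 with the block).

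**Figure D2:**
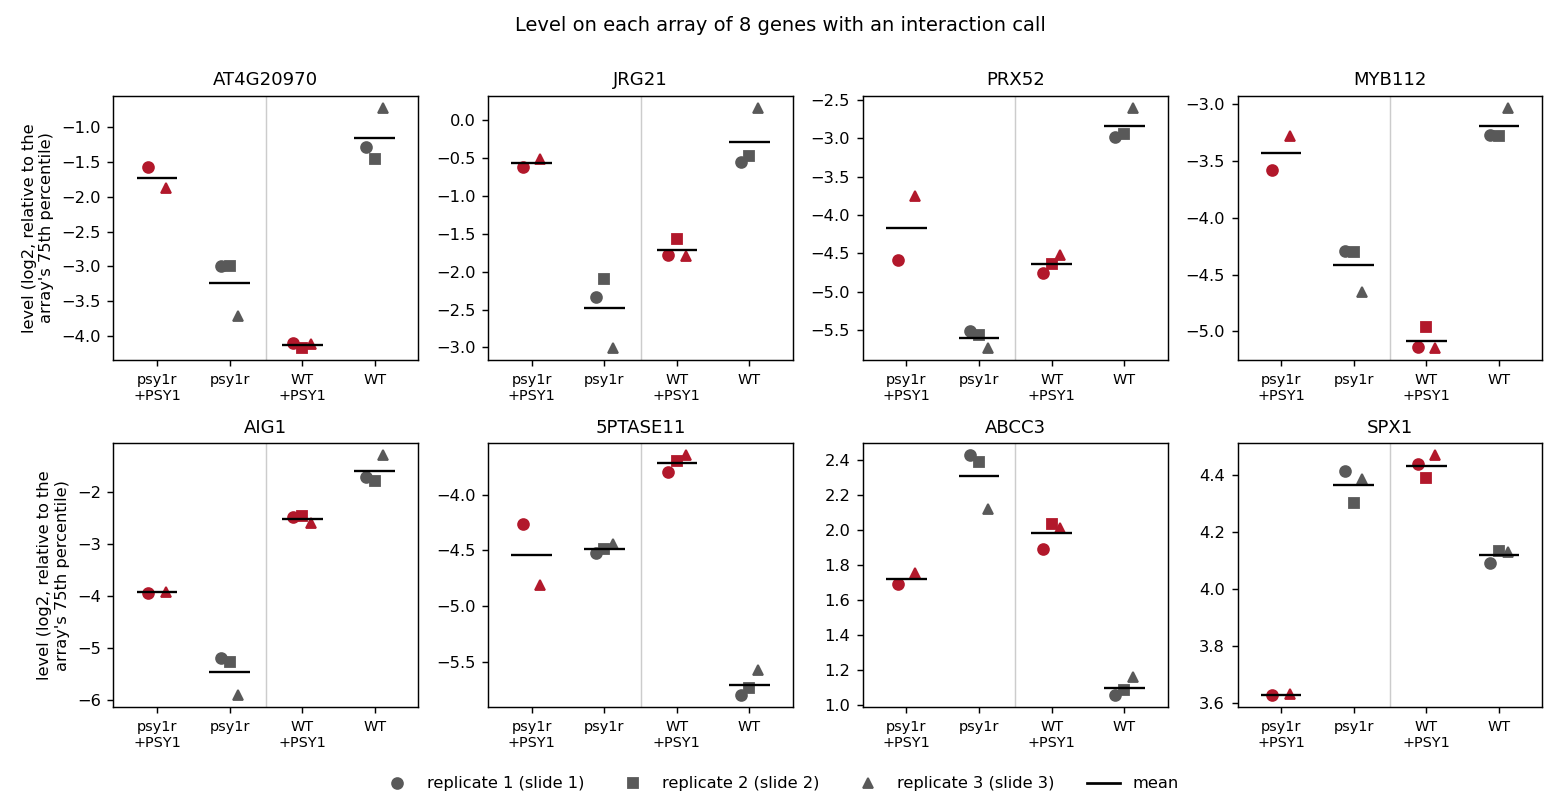
Level on each array (y axis, log2 relative to the 75th percentile of the array) for 8 genes with an interaction call, by group (x axis), with the symbol giving the replicate and slide and the bar the mean. For AT4G20970, JRG21, PRX52, MYB112 and AIG1 the treated arrays were above the untreated ones in psy1r and below them in WT, and for ABCC3 and SPX1 the order was turned round.

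AIG1, RLP22 and MLO12, called with a higher response in psy1r, are linked to pathogen responses. They are not every called gene with such a link, as PMR6, described below, was called with a lower response in psy1r. AIG1 (AT1G33960), a GTP-binding protein induced when a bacterial effector is recognised, had levels of -3.94 and -3.92 in psy1r + PSY1, -5.20, -5.27 and -5.91 in psy1r, -2.48, -2.47 and -2.60 in WT + PSY1, and -1.72, -1.79 and -1.3 in WT. Both psy1r groups were below both WT groups. Its interaction was 2.44 ± 0.30 (adjusted p = 0.0296, and 0.117 with the block). RLP22 (AT2G32660), a receptor-like protein, had an interaction of 1.68 ± 0.21, with responses of 0.92 ± 0.16 in psy1r and -0.75 ± 0.14 in WT. MLO12 (AT2G39200), a membrane protein of the family needed for powdery mildew infection, had an interaction of 1.16 ± 0.15 with one probe and 0.11 ± 0.62 with another.

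ATL8 (AT1G76410), a ubiquitin ligase of the RING type, had levels of 0.20 and 0.30 in psy1r + PSY1, -0.73, -0.59 and -0.48 in psy1r, -0.07, 0.11 and 0.01 in WT + PSY1, and 0.89, 1.0 and 1.21 in WT. MGL (AT1G64660), methionine gamma-lyase, which breaks down methionine, had 0.59 and 0.96 in psy1r + PSY1, 0.10, 0.14 and -0.20 in psy1r, 0.69, 0.74 and 0.83 in WT + PSY1, and 1.73, 1.70 and 1.72 in WT. In both genes the 3 WT arrays were above the other 8. The interaction was 1.86 ± 0.18 for ATL8 (adjusted p = 0.00946, and 0.0253 with the block) and 1.73 ± 0.20 for MGL (adjusted p = 0.0204, and 0.108 with the block). The other loci called in this direction, AT3G62990, AT5G12340, AT1G44608 and AT5G03610, and 1 probe with no locus had interactions of 1.04 to 2.45, and a second probe of AT5G03610 gave 0.51.

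Of the 6 probes whose response was lower in psy1r, 5PTASE11 (AT1G47510), a phosphatase of phosphoinositides, had the largest difference. Levels were -4.26 and -4.81 in psy1r + PSY1, -4.52, -4.49 and -4.45 in psy1r, -3.79, -3.70 and -3.64 in WT + PSY1, and -5.80, -5.74 and -5.58 in WT. The WT groups were apart, while the 2 treated psy1r arrays lay on either side of the untreated ones. The response was -0.05 ± 0.16 in psy1r and 2.0 ± 0.14 in WT, an interaction of -2.05 ± 0.21 (adjusted p = 0.0158, and 0.108 with the block). Untreated psy1r was above untreated WT.

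For the other 5 the level was lower after PSY1 in psy1r and higher after it in WT. ABCC3 (AT3G13080) moves glutathione conjugates and chlorophyll breakdown products into the vacuole. It had levels of 1.69 and 1.75 in psy1r + PSY1, 2.43, 2.39 and 2.12 in psy1r, 1.89, 2.04 and 2.01 in WT + PSY1, and 1.06, 1.09 and 1.16 in WT, with an interaction of -1.47 ± 0.16 (a second probe gave -0.95). SPX1 (AT5G20150), which senses phosphate status and restrains the starvation response, had 3.63 and 3.63 in psy1r + PSY1, 4.41, 4.30 and 4.39 in psy1r, 4.44, 4.39 and 4.47 in WT + PSY1, and 4.09, 4.13 and 4.13 in WT. The treated psy1r arrays were the lowest of the 11, with an interaction of -1.05 ± 0.13 (adjusted p = 0.0296, and 0.117 with the block). PMR6 (AT3G54920), a pectate lyase-like protein, gave -1.33 ± 0.15, but its other probes gave -0.52 and -0.12. AT2G33585 gave -1.33 ± 0.14. AT3G06660 gave -1.52 ± 0.19 with 1 array of psy1r + PSY1, since an outlier spot was left out, so that this array is assumed to vary like those of the other groups. A second probe of it gave -1.08 and was not called (adjusted p = 0.156).

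**Figure D3:**
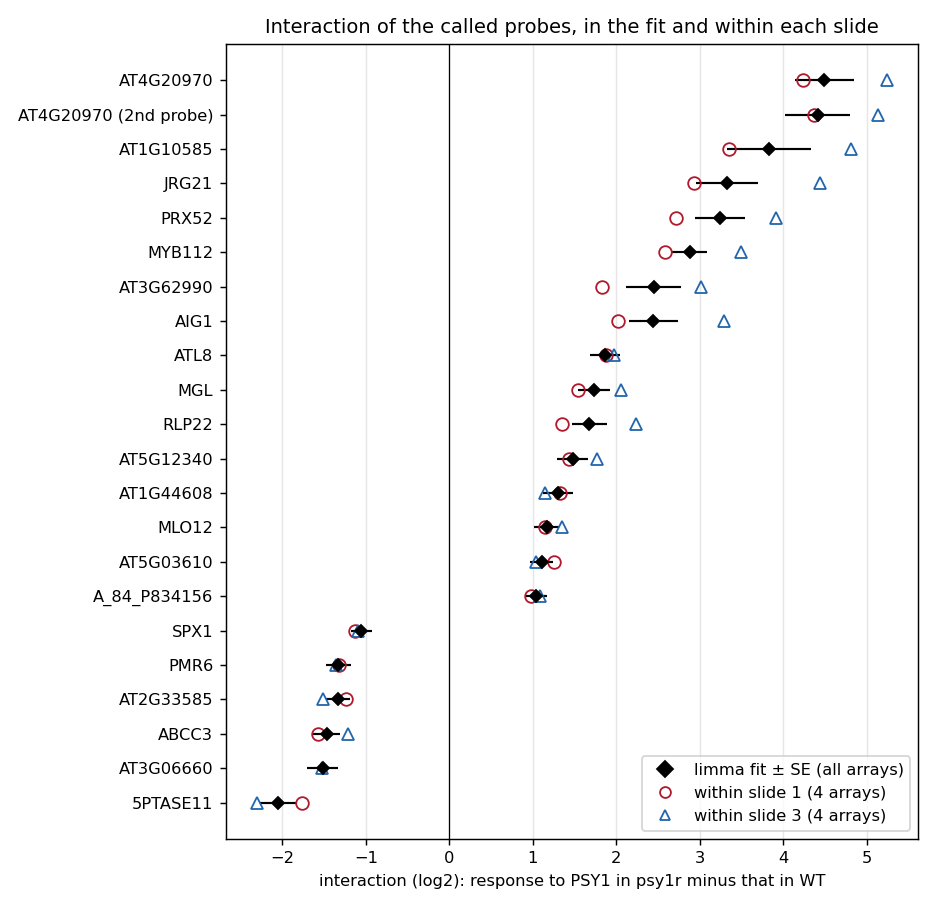
Interaction (x axis, log2) of the 22 called probes in the limma fit (black diamonds with SE), within slide 1 (red circles) and within slide 3 (blue triangles), the 2 slides that held all 4 groups. Both slides gave the sign of the fit for 21 probes, and AT3G06660 had no value on slide 1.

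Slides 1 and 3 each held 1 array of every group, so the interaction could be taken within them, with no error of its own. AT4G20970 gave 4.24 on slide 1 and 5.24 on slide 3, PRX52 2.71 and 3.91, MYB112 2.58 and 3.50, and ATL8 1.88 and 1.98. For 5PTASE11 the values were -1.76 and -2.30, and for SPX1 -1.13 and -1.09. The values on slide 3 were further from 0 than those on slide 1 for each of the 11 loci with the largest positive interactions. They were nearer to 0 on slide 3 for AT1G44608 (1.33 on slide 1 and 1.15 on slide 3), AT5G03610 (1.25 and 1.04), ABCC3 (-1.57 and -1.22) and SPX1. Both slides entered the fit, so these values are not independent of the calls.

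Several genes with a lower response in psy1r passed 2-fold without being called. ORS1 (AT2G41230), a promoter of organ growth, had 0.45 and 0.93 in psy1r + PSY1, 1.96, 2.02 and 2.15 in psy1r, 2.23, 2.32 and 2.27 in WT + PSY1, and 1.97, 1.98 and 2.30 in WT. Its difference lay in psy1r, with a response of -1.35 ± 0.16 there and 0.19 ± 0.15 in WT (interaction -1.54 ± 0.22, adjusted p = 0.0523). TGG2, a myrosinase that cleaves glucosinolates, gave -1.27 ± 0.20 (adjusted p = 0.0749) and AT5G55450 -1.75 ± 0.26 (adjusted p = 0.058). LECRKA4.1, a lectin receptor kinase, gave -1.05 ± 0.17 (adjusted p = 0.0808). AT3G62580 gave -1.04 ± 0.16 (adjusted p = 0.0769) with one probe and -0.35 ± 0.19 with another. NYC1, a chlorophyll b reductase, gave -2.47 ± 0.37 (adjusted p = 0.0874) with a probe that had 1 array of psy1r + PSY1, and -0.79 ± 0.83 with another.

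Of 6 genes that the study's text names for quantitative RT-PCR, 5PTASE11 had an interaction call. WVD2 (AT5G28646), which acts on microtubules in cell expansion, had levels of -4.18 and -4.31 in psy1r + PSY1, -4.22, -4.0 and -4.18 in psy1r, -2.89, -1.97 and -1.64 in WT + PSY1, and -4.69, -4.52 and -5.46 in WT. Its WT groups were apart and its psy1r groups overlapped, with responses of -0.11 ± 0.36 in psy1r and 2.73 ± 0.32 in WT (interaction -2.84 ± 0.48, adjusted p = 0.0949). CRL, which is needed for plastid division, gave -1.14 ± 0.23 (adjusted p = 0.129), and AML2, an RNA-binding protein, -1.12 ± 0.31 (adjusted p = 0.215) with one probe and -0.20 with another. MPK11, a MAP kinase, had responses of 0.39 ± 0.11 in psy1r and 1.0 ± 0.09 in WT (interaction -0.61 ± 0.14, adjusted p = 0.173). Both had the same sign, though by the limits above MPK11 counted as responding in WT alone. RALF35 (AT2G32785), a signalling peptide precursor, was well above background on 2 arrays, both of WT + PSY1, and was not tested.

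Pathways were described over lists of loci, with 1 probe for each locus, by counts and medians. The lists were chosen with earlier results of these data known, so their medians are not a separate test. Of 19108 loci, 16 (0.0837%) were called for the interaction and 541 (2.83%) passed 2-fold at an unadjusted p below 0.05, 298 higher (1.56%) and 243 lower (1.27%). The median over all loci was 0.02 for the interaction, 0.01 for the response in psy1r and -0.02 for that in WT. Under the other scalings the median interaction of all loci was 0.02 to 0.03.

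Glutathione transferases, which couple glutathione to reactive compounds, had a median interaction of 0.66 over 38 tested loci, and 31 were above 0. Their median response was 0.18 in psy1r and -0.38 in WT. The median in psy1r was 0.05 without psy1r + PSY1 replicate 3, 0.03 without psy1r replicate 3 and 0.02 with replicates 1 and 2 only. None was called; 7 passed the unadjusted limits as higher and 1, GSTU9, as lower. GSTU2 had levels of -2.19 and -1.84 in psy1r + PSY1, -2.74, -2.60 and -3.05 in psy1r, -2.80, -2.65 and -2.89 in WT + PSY1, and -1.87, -1.99 and -1.54 in WT, and neither line's treated and untreated arrays overlapped (interaction 1.76 ± 0.25, adjusted p = 0.0523). GSTU22 gave 1.90 ± 0.30 (adjusted p = 0.0769). Both the tau class (median 0.61, n = 25) and the phi class (0.68, n = 13) were above 0. The median was 0.35 within slide 1, 1.13 within slide 3 and 0.28 with replicates 1 and 2 only. Transferases include near-identical neighbours that a probe may not separate.

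Genes of abscisic acid, the hormone of drought, and of cold had a median interaction of 0.58 over 22 loci, 21 of them above 0. The median response was 0.51 in psy1r and -0.18 in WT. None was called, 3 passed the unadjusted limits as higher and none as lower. COR413IM1, a cold-regulated protein of the chloroplast envelope, had levels of -0.06 and -0.59 in psy1r + PSY1, -1.40, -1.38 and -1.66 in psy1r, -0.05, 0.02 and 0.00 in WT + PSY1, and 0.29, 0.33 and -0.06 in WT. The psy1r arrays were apart, whereas those of WT overlapped (interaction 1.35 ± 0.24, adjusted p = 0.103). NCED3, the rate-limiting enzyme of abscisic acid synthesis under drought, gave 1.66 ± 0.51 (adjusted p = 0.258), and the cold target COR15A 1.75 ± 0.44 (adjusted p = 0.192). Target genes had the highest median (0.88, n = 13), and the PP2C phosphatases that restrain the pathway had 0.37 (n = 6), which was -0.01 without psy1r + PSY1 replicate 3. Without psy1r replicate 3 the median response in psy1r was 0.27 and the median interaction 0.41, and without WT replicate 3 the median response in WT was -0.33. The list's median interaction was 0.52 within slide 1, 0.69 within slide 3 and 0.55 without psy1r + PSY1 replicate 3, the array with the highest seed markers.

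**Figure D4:**
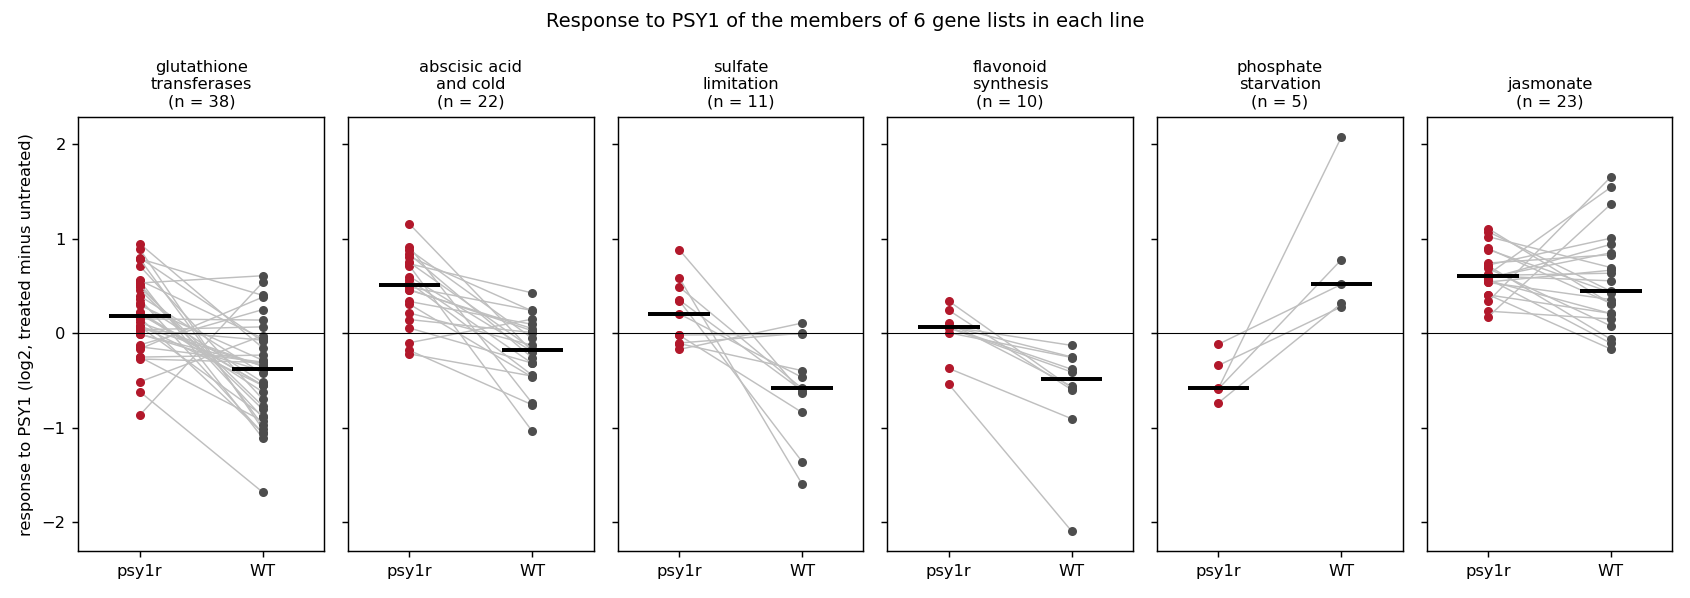
Response to PSY1 (y axis, log2 of treated over untreated) of each member of 6 gene lists in psy1r (left, red) and WT (right, grey), with lines joining a gene and bars at the medians. Medians lay above 0 in psy1r and below 0 in WT for glutathione transferases, abscisic acid and cold, sulfate limitation and flavonoid synthesis, the reverse held for phosphate starvation, and both medians were above 0 for jasmonate.

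Sulfate limitation genes had a median interaction of 0.82 over 11 loci, with 8 above 0. In psy1r 6 of the 11 were higher after PSY1 and the median response was 0.21, against 1 of 11 and -0.59 in WT. The loci that passed the unadjusted limits were the sulfate transporter SULTR1;2 (1.71 ± 0.76), the glucosidase BGLU28 (1.52 ± 0.54), ATSDI1 (2.18 ± 0.80) and LSU1 (1.08 ± 0.48), and the last pair is known to be induced when sulfate is short. None was called. The sulfate transporter of the vacuole SULTR4;2 gave 0.67 ± 0.14. Without psy1r + PSY1 replicate 3 none of the 11 passed the unadjusted limits (median 0.65). With replicates 1 and 2 only, 2 passed (median 0.44) and the median response in psy1r was -0.13.

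Phosphate starvation genes ran the other way. All 5 were lower after PSY1 in psy1r (median -0.58) and higher in WT (median 0.52), with a median interaction of -1.05. That median is the value of SPX1 itself, the called member, so it is not separate from that call. SPX1 was called, and SPX3, another sensor of the family, passed the unadjusted limits (-2.66 ± 0.93). SPX3 had 1.39 and -0.68 in psy1r + PSY1, 1.35, 1.43 and 0.04 in psy1r, 1.65, 1.51 and 1.67 in WT + PSY1, and 0.12, 0.11 and -1.63 in WT, so replicate 3 was the lowest array of each group but WT + PSY1. PAP17, an acid phosphatase, gave -0.62 ± 0.32, SQD2, a sulfolipid synthase, -0.63 ± 0.48, and MGDC, a galactolipid synthase also called MGD3, -1.37 ± 0.74. The median response in psy1r was -0.01 without psy1r + PSY1 replicate 3, and that in WT was 0.22 without WT replicate 3. With replicates 1 and 2 only, the median interaction was -0.56, none of the 5 was above 0, and the median responses were -0.18 in psy1r and 0.24 in WT.

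The 10 flavonoid synthesis genes all had an interaction above 0, with a median of 0.50, while 9896 of all 19108 loci were above 0. After PSY1, 8 of the 10 were higher in psy1r (median response 0.07) and none in WT (median -0.49). They are part of a list of 29 loci for light signalling and flavonoids. Its 14 photoreceptors or regulators had a median interaction of 0.05 (8 above 0), its 3 flavonoid factors 0.75 and its 2 light targets -0.30 (none above 0). TT7, flavonoid 3'-hydroxylase, had -1.16 and -0.98 in psy1r + PSY1, -1.31, -1.34 and -1.59 in psy1r, -2.06, -2.07 and -2.07 in WT + PSY1, and -1.47, -1.56 and -1.43 in WT (interaction 0.92 ± 0.16, adjusted p = 0.0963). WT + PSY1 was the lowest group. DFR, dihydroflavonol reductase, gave 1.56 ± 0.66 and was the 1 member to pass the unadjusted limits. The median of the 10 synthesis genes was 0.18 within slide 1 and 1.22 within slide 3. Class III peroxidases had a median of 0.56 over 10 loci, 9 above 0, with PRX52 the 1 call. Their list held the 13 loci matched by symbol, which need not stand for the whole family. The median was 0.34 with array weights and 0.67 without WT replicate 3.

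Salicylic acid and defence genes had a median interaction of 0.03 over 22 loci, with unlike medians by role, which were not tested against each other. The 5 synthesis genes had a median of 0.51 and the 5 effectors 0.60, whereas the 12 regulators had -0.42. AIG1 was called, and ICS2, an isochorismate synthase (1.55 ± 0.22, adjusted p = 0.057), PBS3, which conjugates isochorismate (1.80 ± 0.53), and the glucanase BGL2 (1.78 ± 0.54) passed the unadjusted limits. ICS2 had -4.81 and -4.68 in psy1r + PSY1, -5.86, -5.63 and -5.98 in psy1r, -4.49, -4.37 and -4.50 in WT + PSY1, and -4.16, -4.10 and -3.67 in WT. Untreated psy1r was its lowest group. Of 57 WRKY transcription factors, 4 passed as higher and none as lower, with a median of 0.24 (0.11 without psy1r + PSY1 replicate 3). They were WRKY31 (1.82 ± 0.64), WRKY8 (1.23 ± 0.47), WRKY35 (1.17 ± 0.27) and WRKY65 (1.09 ± 0.39).

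Jasmonate genes of the list mostly had a response of the same sign in both lines. All 23 were higher after PSY1 in psy1r (median response 0.61) and 20 were in WT (median 0.44), and the median interaction was 0.18. JRG21, whose product inactivates jasmonate, is not on the list and was called with opposite responses (1.90 in psy1r and -1.42 in WT). One target, the defensin PDF1.2b, passed the unadjusted limits (-1.19 ± 0.39). The sign of the list's median interaction was not stable, at -0.34 without psy1r + PSY1 replicate 1, 0.52 without its replicate 3, -0.12 without psy1r replicate 3 and -0.07 with array weights. The 25 heat shock genes had a median response of -0.59 in psy1r and -0.21 in WT, and the median interaction was -0.37, with -0.43 within slide 1 and 0.28 within slide 3. Without psy1r + PSY1 replicate 3 it was -0.14, and without psy1r replicate 3 it was -0.73 with 10 genes past the unadjusted limits as lower, against 2 with all arrays. The 9 hypoxia genes had a median interaction of -0.04, with 4 above 0, and the 6 regulators or sensors among them had a median of 0.29. The sucrose synthase SUS4 (-1.5 ± 0.53), the alcohol dehydrogenase ADH1 (-1.03 ± 0.34) and the transcription factor ERF71 (-1.33) passed the unadjusted limits as lower, and none as higher. The list's median was 0.36 without psy1r + PSY1 replicate 1, -0.45 without its replicate 3, 0.07 without psy1r replicate 3 and 0.11 under both quantile normalizations.

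Photosynthesis genes had a median interaction of -0.30 over 50 loci, with 9 above 0 and none past the unadjusted limits. Responses had a median of -0.08 in psy1r (10 of 50 up) and 0.20 in WT (41 of 50 up). The median in psy1r was 0.03 under both quantile normalizations and 0.12 without psy1r + PSY1 replicate 3. Slide 1 gave -0.10 and slide 3 -0.71, and with replicates 1 and 2 only the median was -0.04, with 20 loci above 0.

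**Figure D5:**
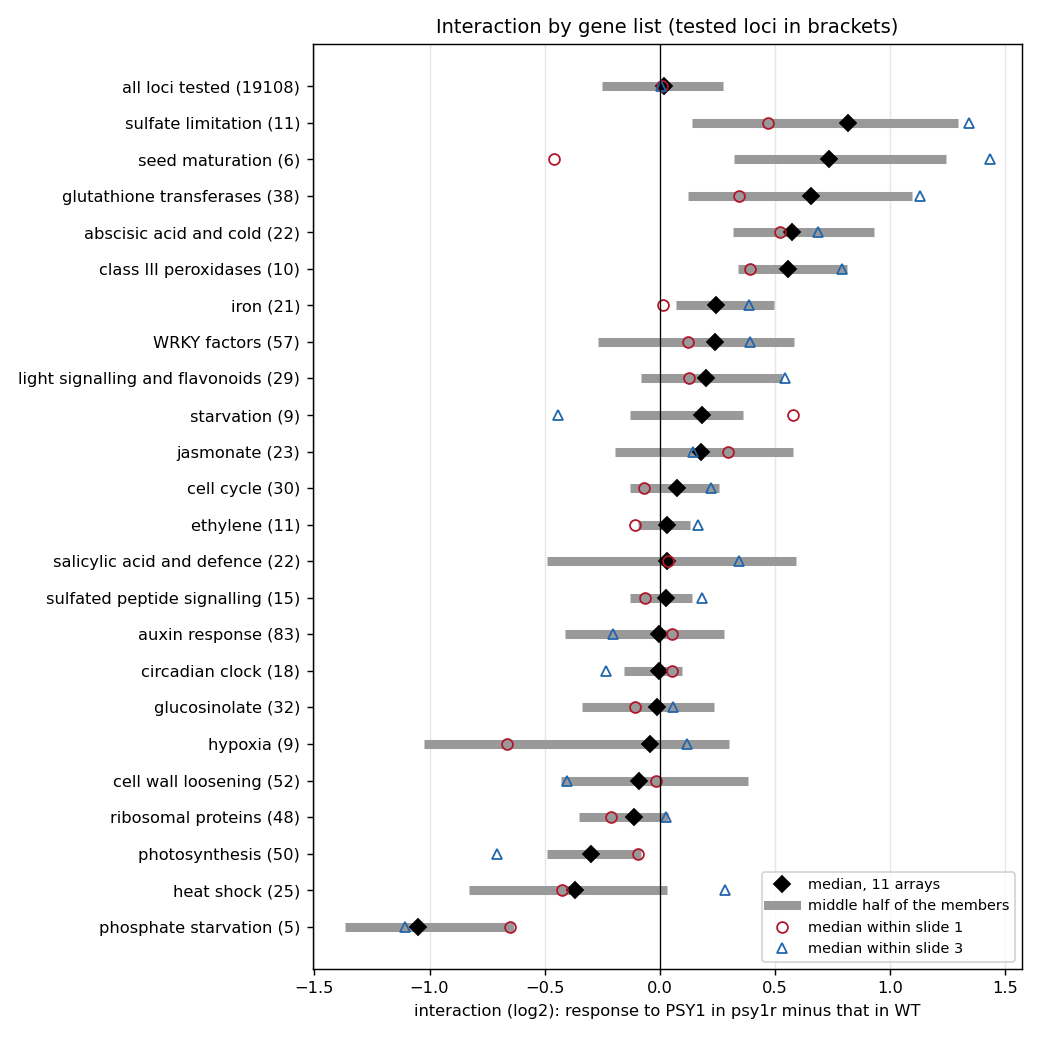
Median interaction (x axis, log2; black diamonds) of each gene list and the quartiles of its members (grey bars), with the medians within slide 1 (red circles) and slide 3 (blue triangles); tested loci are in brackets. All loci had a median of 0.02, glutathione transferases 0.66, abscisic acid and cold 0.58 and phosphate starvation -1.05, while the medians of 11 lists, seed maturation and heat shock among them, differed in sign between the slides.

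Genes of sulfated peptide signalling had no member past the unadjusted limits, and 2 under both quantile normalizations. The median interaction was 0.03 over 15 loci. The PSY1 precursor gene itself had responses of 0.36 in psy1r and 0.36 in WT (interaction 0.00 ± 0.33). The phytosulfokine precursor PSK4 had 2.2 and 1.84 in psy1r + PSY1, 1.17, 1.13 and 0.96 in psy1r, 1.71, 1.69 and 1.68 in WT + PSY1, and 1.6, 1.48 and 1.68 in WT (0.83 ± 0.18, adjusted p = 0.149). The untreated psy1r arrays of PSK4 were its lowest. PSKR1 and PSKR2, the phytosulfokine receptors, gave 0.15 ± 0.21 and 0.13 ± 0.25, TPST -0.03 ± 0.18, and the proton pumps HA1 and HA2 0.17 ± 0.15 and 0.03 ± 0.14.

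Lists linked to growth had medians near that of all loci. The 83 auxin response loci had a median of 0.00 (4 higher, 1 lower), the 52 expansins and xyloglucan endotransglucosylases -0.09 (2 higher, 1 lower), and the 30 cell cycle loci 0.08 (none higher, 1 lower). Past the unadjusted limits were, as higher, IAA14, an auxin-regulated repressor of transcription (1.02 ± 0.36), the xyloglucan endotransglucosylase XTH11 (1.08 ± 0.26) and the expansin-like EXLB1 (1.19 ± 0.45) among others, and, as lower, the cyclin CYCA1;2 (-1.06 ± 0.39). The expansin EXPA2 had the lowest interaction among them, -2.88 ± 0.90 (adjusted p = 0.265). Its levels were -1.92 and -4.52 in psy1r + PSY1, -0.98, -0.98 and -1.22 in psy1r, -5.29, -5.39 and -5.24 in WT + PSY1, and -6.77, -6.25 and -5.05 in WT. All 5 arrays of psy1r, treated or not, were above all 6 of WT, and the 2 treated psy1r arrays were far apart. Medians were also between -0.11 and 0.24 for ribosomal proteins, clock, ethylene, glucosinolate, starvation and iron genes. That of the iron genes was 0.24, but 0.72 without psy1r + PSY1 replicate 1, 0.00 without its replicate 3 and 0.5 without psy1r replicate 3. That of the starvation genes was 0.18, with -0.12 and 0.36 without replicates 1 and 3 of psy1r + PSY1 and -0.14 without psy1r replicate 3. Of the 9 starvation loci tested 1 was called, MGL (1.73 ± 0.20), described above. The median of the 6 seed maturation genes was 0.73, but -0.40 without psy1r + PSY1 replicate 3.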

How the data were processed

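The authors deposited a scanner file for each array, written by Agilent Feature Extraction 10.7.3.1, and a table of processed log2 values. The deposited processed intensity is background-subtracted and not normalized between arrays. The deposited log2 values are centred per probe and, set against the scaled intensities centred the same way, correlated at 0.99987 or more on every array, while the methods name RMA in GeneSpring. These log2 values served as an alternative only. Between 72.3% and 81.7% of spots were well above background, the median spot signal was 239 to 380.5 and the local background 44 to 47, and no spot was saturated. With 2 or 3 arrays per group, the number of arrays limits the precision.

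Control spots and outlier spots (3 to 97 per array) were left out, spots of a probe were averaged, and each array was divided by its 75th percentile. Group means of the 11 arrays were fitted in limma 3.58.1 (R 4.3.3, with the data.table package 1.17.8) with lmFit, contrasts.fit and eBayes, and p-values were adjusted by Benjamini-Hochberg over all tested probes. Steps were tested on simulated data. Probes were matched to loci through RefSeq transcripts of TAIR10.1, which gave 26423 of the tested probes a locus.

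Named genes are PSY1R, the 6 RT-PCR genes that the study's text names, the 12 largest differences in each direction among called loci (filled up with the smallest p among those past 2-fold, said not to be called) and, per list, called members and up to 4 with the largest difference. SULTR4;2, PAP17, GSTU9, WRKY65, IAA14, the PSY1 precursor, the phytosulfokine receptors, TPST and the pumps fall outside this rule and were chosen after their values were seen. The gene lists and their members were chosen with earlier results of these data known. Loci that a synonym had placed in the wrong family were removed. The methods describe independent biological samples, and the labels do not say whether replicates came from separate flasks. Same-numbered arrays shared a slide, and their deviations from the group means correlated at -0.15 to 0.41. The array weights, the block, other scalings and filters, and left-out arrays were tried as alternatives. Other parts of the study, the RT-PCR values and promoter motifs, were not analysed here.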

Additional observations from a re-analysis of the deposited data

Results flagged for a closer look

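The response to PSY1 differed between psy1r and WT, by the interaction term, for 22 probes. The log2 difference, psy1r minus WT, was 4.49 and 4.41 for the probes of AT4G20970, 3.83 for AT1G10585, 3.33 for JRG21, 3.24 for PRX52, 2.88 for MYB112, 2.45 for AT3G62990 and 2.44 for AIG1. It was 1.86 for ATL8, 1.73 for MGL, 1.68 for RLP22, 1.48 for AT5G12340, 1.3 for AT1G44608, 1.16 for MLO12, 1.11 for AT5G03610 and 1.04 for a probe with no locus. In the other direction it was -2.05 for 5PTASE11, -1.52 for AT3G06660, -1.47 for ABCC3, -1.33 for AT2G33585, -1.33 for PMR6 and -1.05 for SPX1. With the replicate block the adjusted p of AT4G20970 (both probes), PRX52, MYB112 and ATL8 stayed below 0.05, at 0.0253 to 0.0344.

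No group had more than 3 arrays, so no single array was tested as an outlier within its group. The array psy1r + PSY1 replicate 3 had a summed seed marker level of 4.25, against -1.76 on replicate 1. Its part in the interaction was not tested, and without it 20 probes were called, 11 of them among the 22.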

How the results depend on the processing

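The alternative with replicates 1 and 2 only, and those of the gene lists, were chosen after seeing the data. Interaction calls (22) numbered 52 with normexp and quantile normalization, 9 with no filter on dim probes, 94 with array weights, 708 with replicates 1 and 2 only, 818 without the adjustment, and 0 both with replicates 1 and 2 averaged and with replicates 1 and 3 only and the block; without one array they ranged from 3 to 904. In limma, with no adjustment, 3893 probes had p below 0.05. Calls in psy1r (1) numbered 10 with normexp, 19 with the RMA steps, 6 with the filter on at least 2 arrays, 5 with no filter, 2 with an unmoderated t, 470 with replicates 1 and 2 only, 146 without the adjustment, and 0 with replicates averaged, replicates 1 and 3 only, each locus once or only the groups compared (range without one array 0 to 82). Calls in WT (167) numbered 88, 86, 75, 28, 95, 325 and 588 under the first 7 of these settings, 425 with array weights, 714 with no limit on the fold, 364 with only the groups compared, and 0 with replicates averaged or replicates 1 and 3 only (range without one array 3 to 328). The cause of these shifts was not tested.

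With the replicate number (the slide) as a block, the interaction had 5 calls, psy1r 0 and WT 199. Among 32 probes followed through the alternatives (the called ones, those named as close to a call and 4 RT-PCR genes) none changed direction. Sizes did move, from 1.61 to 3.04 for MYB112, 1.89 to 3.66 for PRX52 and 1.05 to 2.64 for AT3G62990. The range was 0.59 to 1.24 for MLO12 and -2.32 to -1.09 for 5PTASE11, but only -1.16 to -1.03 for SPX1. Mean levels were -4.08 for MYB112, -4.33 for PRX52, -4.93 for AT3G62990 and -4.62 for 5PTASE11, against 4.18 for SPX1. Whether dim signal set these ranges was not tested. List members named for their group were not followed one by one. Promoter motifs were planned and not run.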
